A study of Peromyscus polionotus with 11 samples.

Results

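Genes that brain microglia are known to express were followed here, 9 in all: C1qa, C1qb, C1qc, Csf1r, Cx3cr1, Tyrobp, Ctss, Laptm5 and Nrros. The members are all probe sets whose only annotated gene symbol is one of these names, which gave 16 probe sets for 9 genes, of 22626 probe sets and 12393 singly named genes tested. RNA came from micropunches of the oldfield mouse, Peromyscus polionotus, a wild North American rodent that shares no genus with the house mouse, and was hybridised to house mouse arrays. There were 2 short-day and 3 long-day arrays of the bed nucleus of the stria terminalis (BNST), a relay between amygdala and hypothalamus. There were 3 short-day and 3 long-day arrays of the medial preoptic area (MPOA), a hypothalamic centre of parental and sexual behaviour. The groups differ by nucleus and day length only, as far as the labels say. The sources used here do not give the hours of light, the sex and age of the animals or any further treatment, nor do they state whether a sample pools animals or whether both nuclei of 1 animal were used. The question of the series was whether day length alters gene expression in these nuclei.

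Microglia are the resident macrophages of the brain. They survive on signals through the receptor Csf1r, sense the neuronal chemokine fractalkine through Cx3cr1, and pass signals of surface receptors such as Trem2 to the cell interior through the adaptor Tyrobp. They are also the main source of C1q in the brain, the starting molecule of the classical complement pathway, which is built from A, B and C chains and can tag synapses and debris for removal.

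Every array had a median intensity of 19 on a linear scale. Of the 16 member probe sets 9 averaged 19 or less, where 49.6% of all probe sets did, so that the members were spread about the middle of the array. Taking the brightest probe set of each gene, 5 of 9 members averaged above the array median, against 14 of 15 neuronal, 8 of 11 astrocyte and 9 of 11 oligodendrocyte marker genes. Of 27 further microglial genes, 8 averaged above it. These counts set different probe sets side by side and describe readings, not transcript levels. Loss of signal through sequence differences between the species and low abundance cannot be told apart here. The members above it were C1qa, C1qc, Cx3cr1, Laptm5 and Nrros, while C1qb, Csf1r, Tyrobp and Ctss were at or below it. A reading above the array median is no detection call, so these levels neither establish nor refute microglial RNA in the punches. In tissue punches, fewer microglia and less RNA per microglial cell cannot be told apart either.

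The short-day MPOA array numbered 6 stood apart from the rest. On the first principal component of all probe sets, which held 23.2% of the variance, it lay at -31.2, while the other 10 arrays lay between -6.63 and 25.4. The short-day BNST arrays lay at -2.38 and -6.63 and the long-day BNST arrays at 7.57 to 25.4.

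**Figure D1:**
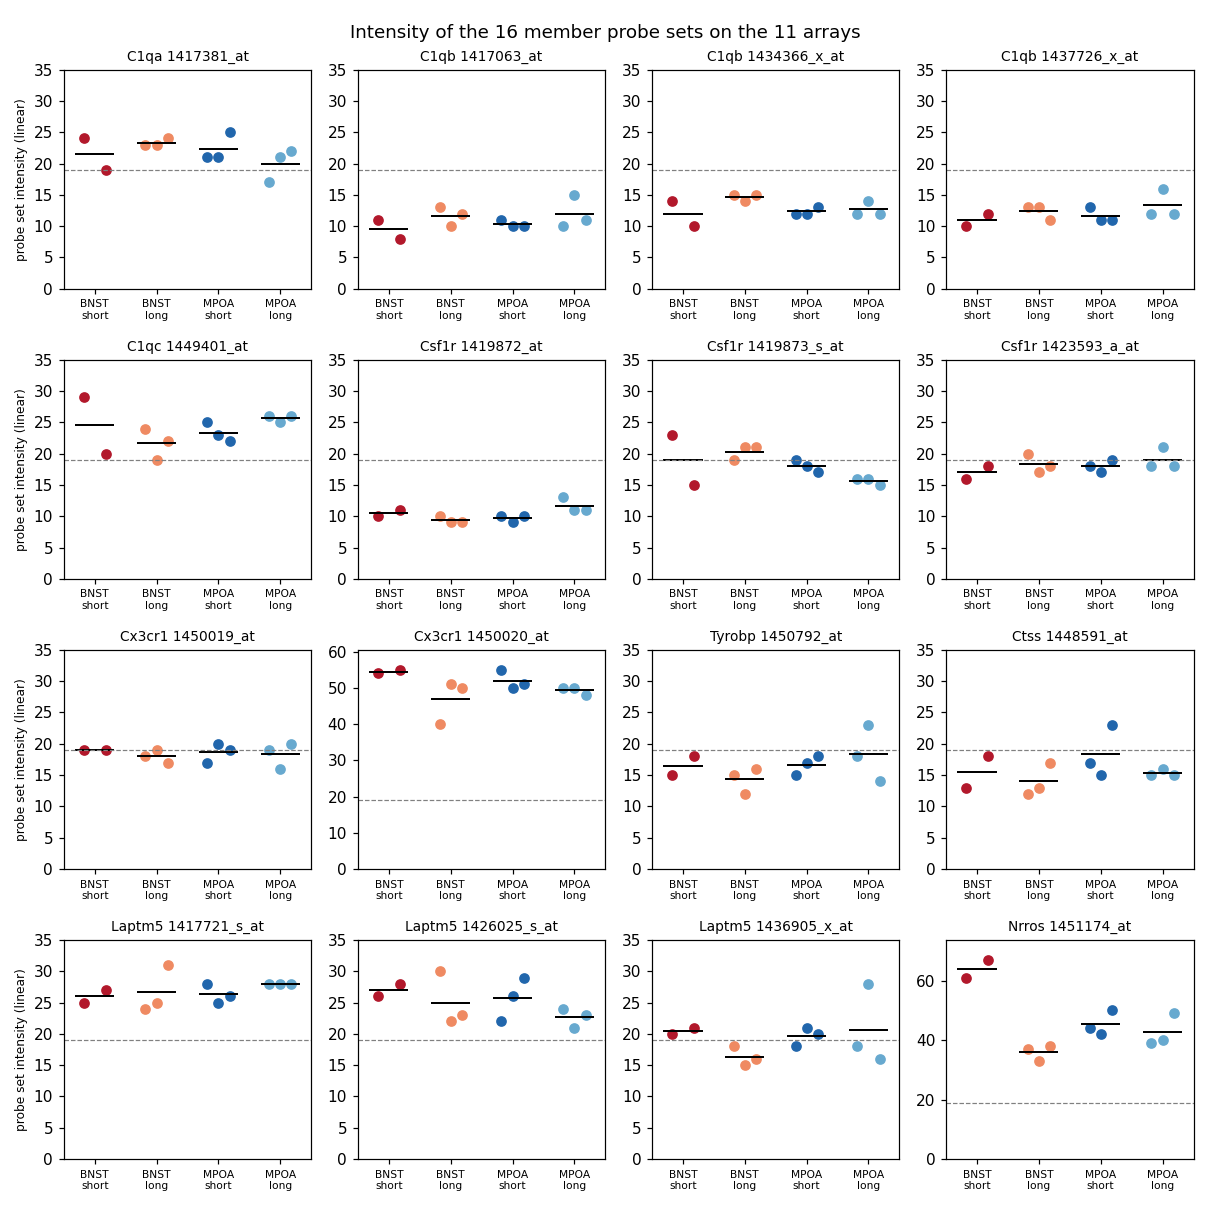
Probe set intensity (linear scale) of the 16 member probe sets on each of the 11 arrays, 1 panel per probe set. Points are arrays, black bars are group means and the dashed line is the array median of 19. Nrros on the short-day BNST arrays (61 and 67) lies above all its other values, and the C1qb panels lie below the dashed line throughout.

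The 3 chains of C1q gave no common shift with day length in either nucleus. C1qa, the A chain, read 24 and 19 on the short-day BNST arrays, against 23, 23 and 24 on the long-day ones. In the MPOA it read 21, 21 and 25 in short days, against 17, 21 and 22 in long days. The groups overlapped in both nuclei, and the log2 differences, short minus long day, were -0.13 ± 0.15 (SE, n = 2 and 3) in the BNST and 0.16 ± 0.14 (n = 3 each) in the MPOA.

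C1qc, the C chain, read 29 and 20 on the short-day BNST arrays, against 24, 19 and 22 in long days. In the MPOA it read 25, 23 and 22 in short days, against 26, 25 and 26 in long days. The BNST short-day values enclosed most of the long-day ones, and the differences were 0.16 ± 0.16 in the BNST and -0.14 ± 0.14 in the MPOA. C1qb, the B chain, is represented by 3 probe sets, whose intensities lay between 8 and 16 on all arrays. Their BNST differences were -0.31, -0.31 and -0.17 and their MPOA differences -0.19, -0.04 and -0.18, so that all 6 values were below 0. The smallest adjusted p among these 6 was 0.407 (limma, Benjamini-Hochberg over all probe sets), and a step of 1 intensity unit at a level of 10 is by itself 0.14 on the log2 scale. Leaving out long-day MPOA array 2, which held the highest MPOA reading of each of these probe sets, put 1434366_x_at at 0.04 in the MPOA.

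Of the 5 probe sets for the receptors Cx3cr1 and Csf1r, only 1 averaged above the array median. Cx3cr1, the receptor of fractalkine, read 54 and 55 on the short-day BNST arrays with probe set 1450020_at, against 40, 51 and 50 on the long-day ones. The groups did not overlap, but the lowest long-day reading, on array 1, stood 10 units below the next. The difference was 0.22 ± 0.14 (adjusted p = 0.540, limma). In the MPOA the same probe set read 55, 50 and 51 in short days, against 50, 50 and 48 in long days (0.07 ± 0.13). The second Cx3cr1 probe set, 1450019_at, stayed between 16 and 20 on all arrays.

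Csf1r, the receptor of the growth factors Csf1 and Il34, had 3 probe sets between 9 and 23, and they disagreed. In the MPOA, probe set 1419872_at read 10, 9 and 10 in short days, against 13, 11 and 11 in long days, while 1419873_s_at read 19, 18 and 17 in short days, against 16, 16 and 15. Neither pair of groups overlapped, and the directions were opposite. The differences were -0.27 ± 0.13 and 0.20 ± 0.14, both with an adjusted p of 1 (limma). The third probe set, 1423593_a_at, gave -0.08 ± 0.13. In the BNST the 3 differences were 0.17, -0.13 and -0.11. For 1419872_at the BNST effect minus the MPOA effect was 0.44 ± 0.19, with an unadjusted p of 0.0302 and an adjusted p of 0.566 (limma).

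Tyrobp, the adaptor, read 15 and 18 on the short-day BNST arrays, against 15, 12 and 16 on the long-day ones, and 15, 17 and 18 on the short-day MPOA arrays, against 18, 23 and 14. The groups overlapped and the differences were 0.21 ± 0.18 in the BNST and -0.11 ± 0.16 in the MPOA. Ctss, the lysosomal protease cathepsin S, read 13 and 18 on the short-day BNST arrays, against 12, 13 and 17. In the MPOA it read 17, 15 and 23 in short days, with the highest reading on array 6, against 15, 16 and 15 in long days. Its differences were 0.14 ± 0.19 in the BNST and 0.23 ± 0.17 in the MPOA.

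Laptm5, a lysosomal membrane protein of immune cells, microglia included, had 3 probe sets at 15 to 31. Probe set 1436905_x_at read 20 and 21 on the short-day BNST arrays, against 18, 15 and 16 on the long-day ones, without overlap (0.33 ± 0.18, adjusted p = 0.469, limma). In the BNST the other two gave -0.03 ± 0.14 and 0.12 ± 0.16. In the MPOA the 3 differences were -0.09, 0.17 and -0.03. The name endings s and x of these probe sets mark possible matches to more than 1 transcript.

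Nrros was the member that passed the threshold. It encodes a leucine-rich repeat protein of myeloid cells that holds latent TGF-beta 1 at the cell surface, and mice without it lose normal microglia. Its single probe set, 1451174_at, read 61 and 67 on the short-day BNST arrays, against 37, 33 and 38 on the long-day ones. The lowest short-day value lay 23 units above the highest long-day value. Mean intensity was 64.0 ± 4.24 (SD, n = 2) in short days and 36.0 ± 2.65 (n = 3) in long days. On the log2 scale short days stood 0.83 ± 0.15 (SE) above long days, or 1.78-fold, with a 95% interval of 0.52 to 1.14 and an adjusted p of 0.0424 (limma).

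In the MPOA, Nrros read 44, 42 and 50 in short days, against 39, 40 and 49 in long days, and these groups overlapped (0.09 ± 0.13, adjusted p = 1, limma). The BNST effect minus the MPOA effect was 0.74 ± 0.20, which missed the threshold over all probe sets (unadjusted p = 0.00132, adjusted p = 0.450, limma). Averaged over the nuclei the difference was 0.46 ± 0.10 (adjusted p = 0.369, limma). The long-day BNST readings were lower than all MPOA readings and the short-day BNST readings higher, so BNST and MPOA overall did not separate (0.13 ± 0.10, adjusted p = 0.650, limma).

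The size of the Nrros difference in the BNST moved little between alternatives, from 0.76 to 0.92, but its adjusted p did not keep to 1 side of the threshold: it passed in 7 of 19 alternatives. Median centring, 1 of these 7, could change nothing, since every array already had the same median. Of the 11 fits that each left out 1 array, only that without the short-day MPOA array 6 kept the call (adjusted p = 0.0229, limma). Without short-day BNST arrays 4 and 5 the adjusted p was 0.136 and 0.263. Without long-day BNST arrays 1, 2 and 3 it was 0.0827, 0.258 and 0.0562. Without short-day MPOA arrays 4 and 5 it was 0.0769 and 0.0524, and without long-day MPOA arrays 1, 2 and 3 it was 0.0605, 0.0530 and 0.0548. With the spread taken from the BNST arrays alone it was 0.373, and with uniform noise added against the rounding 0.0512.

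**Figure D2:**
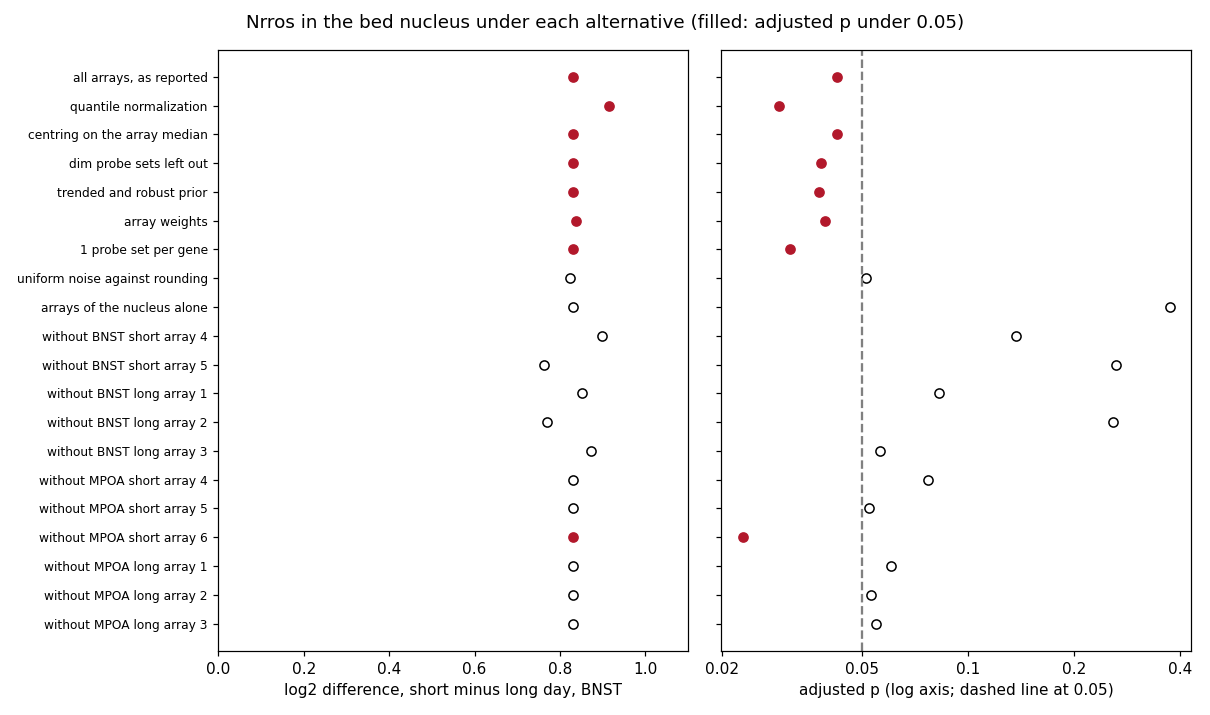
Nrros in the BNST, short minus long day, under each alternative. The left panel gives the log2 difference and the right panel the adjusted p on a log axis with a dashed line at 0.05, and filled points passed. The difference stays between 0.76 and 0.92, while most fits without 1 array lie right of the line.

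Besides Nrros, some readings separated short from long days in the BNST and others did not. Among all probe sets, 23.7% had groups without overlap there. Igha, the immunoglobulin alpha constant region, read 700 and 516 on the short-day arrays, against 252, 294 and 314 on the long-day ones (1.07 ± 0.18, adjusted p = 0.0384, limma). This held for 1 of its 3 probe sets: the others read 41 and 36, against 42, 41 and 34, and 47 and 36, against 47, 38 and 39. The summed intensity of 12 lymphocyte and plasma cell genes was 727 to 914 in short days, against 469 to 520 in long days. Without Igha the sum of the other 11 was 211 to 214, against 206 to 221. The summed intensity of 8 ependymal and choroid plexus genes was 231 to 234 in short days, against 323 to 379. Of these genes 7 were lower and 1 higher in short days. A large part of the difference in the sum lay in Vim, an intermediate filament protein. Vim read 71 and 66, against 128, 164 and 169 (-1.16 ± 0.20, adjusted p = 0.0407, limma). Its other 2 probe sets read 54 and 51, against 79, 94 and 94, and 135 and 67, against 115, 155 and 134. The sum of 12 perivascular macrophage and monocyte genes was 185 to 197 in short days, against 187 to 198, and that of the 27 further microglial genes 515 to 536, against 513 to 537. The 4 red cell genes summed to 336 to 378 in short days, against 465 to 524. Hba-a2, an alpha globin, carried this sum, and the other 3 genes summed to 47 and 53, against 53, 52 and 53. The 15 neuronal genes summed to 4167 to 4339, against 4432 to 4986. Sums with overlap were also those of 11 astrocyte genes, at 4361 to 4860 in short days, against 4702 to 5224. Likewise 11 oligodendrocyte genes summed to 1468 to 2009, against 1566 to 1861, and 13 endothelial and pericyte genes to 2367 to 2666, against 2154 to 2570. The Igha call was lost without short-day BNST arrays 4 or 5, long-day BNST arrays 1 or 2, short-day MPOA array 4 or long-day MPOA array 3. The Vim call was lost without short-day BNST arrays 4 or 5, long-day BNST arrays 2 or 3, short-day MPOA array 4 or any long-day MPOA array. Without 1 array the adjusted p was up to 0.237 for Igha and 0.248 for Vim (limma). With the BNST arrays alone both calls were lost (adjusted p = 0.373 for each, limma), and with quantile normalization that of Vim was (0.0798). The part of these readings in the Nrros result was not tested.

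Counted over all 16 probe sets, short days went with 9 positive and 7 negative differences in the BNST, with a median of 0.10 against -0.01 for all tested probe sets. In the MPOA 7 were positive and 9 negative, with a median of -0.03 against 0.00. The BNST threshold was passed by 1 of 16 member probe sets, while 0.0442% of all probe sets passed. Nrros alone had an unadjusted p under 0.05 (limma) in the BNST, where 12.7% of all probe sets did. Members were chosen with earlier results of these data known, so these shares are a description and no test of the members. Groups without overlap were seen in the BNST for 3 of 16, those of Cx3cr1, Laptm5 and Nrros just given, against 23.7% of all probe sets. In the MPOA 0 of 16 passed and 0% of all probe sets did. Without overlap were 2 of 16, both Csf1r, against 5.19%. In the MPOA 1 member probe set, Csf1r 1419872_at, had an unadjusted p under 0.05 (limma), where 3.5% of all probe sets did.

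For the mean of both nuclei 0 of 16 members passed, with 0.0133% of all probe sets passing, and Nrros alone had an unadjusted p under 0.05 (limma), as had 9.02% of all. For the difference of the day-length effect between the nuclei 0 of 16 passed, with 0% of all, and 2 of 16, Nrros and Csf1r 1419872_at, had an unadjusted p under 0.05 (limma), against 8.34% of all.

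**Figure D3:**
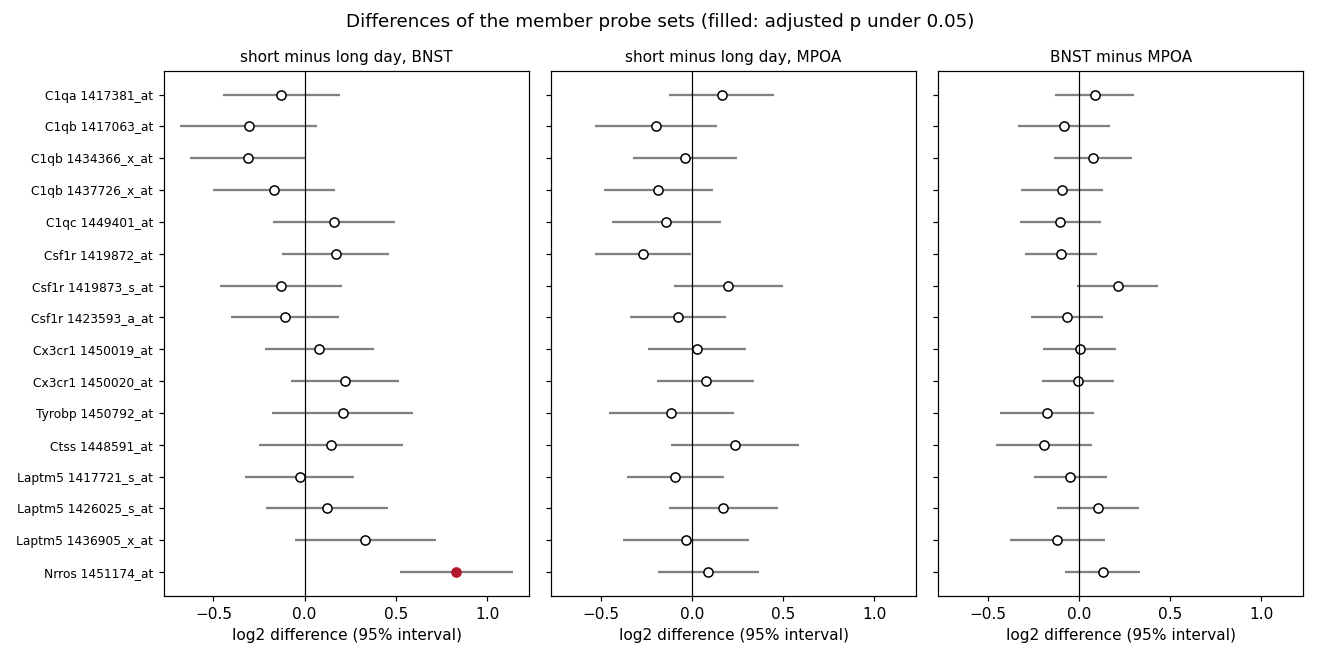
Log2 differences of the 16 member probe sets with 95% intervals in 3 comparisons: short minus long day in the BNST, the same in the MPOA, and BNST minus MPOA. Nrros in the BNST, at 0.83, is the only filled point (adjusted p under 0.05), and of the other intervals only that of Csf1r 1419872_at in the MPOA does not include 0.

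The precision of these comparisons sets what they can show. Outside Nrros, the 95% intervals of the members reached from -0.68 to 0.72 in the BNST and from -0.53 to 0.59 in the MPOA. The median half-width of a member's interval was 0.33 in the BNST and 0.29 in the MPOA. A p above the threshold does not show equal levels, and differences within these intervals are not excluded.

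No member passed the test between the nuclei. Of 16 probe sets 0 passed for BNST minus MPOA, where 1.03% of all probe sets did, 0 had an unadjusted p under 0.05 (limma), against 11.9% of all, and 0 had groups without overlap, against 1.47% of all. There were 6 positive and 10 negative differences with a median of -0.06, against 0.00 for all probe sets. The largest in size was Csf1r 1419873_s_at, at 19.8 ± 3.03 (SD, n = 5) in the BNST and 16.8 ± 1.47 (n = 6) in the MPOA (0.21 ± 0.11, with a 95% interval of -0.01 to 0.44, adjusted p = 0.454, limma). Next were Ctss at -0.19 ± 0.13 and Tyrobp at -0.18 ± 0.12. Cx3cr1 1450020_at averaged 50.0 ± 5.96 in the BNST and 50.7 ± 2.34 in the MPOA.

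Different probe sets of 1 member gene ran together in some pairs and against each other in others. The 10 same-gene pairs of members had a median Pearson r of 0.04 over the 11 arrays, with a range of -0.68 to 0.75. The highest was between C1qb 1417063_at and 1434366_x_at, and the lowest between the Csf1r probe sets 1419872_at and 1419873_s_at. The 110 pairs from different member genes had a median of 0.02, and the highest of these, at 0.86, joined Tyrobp and Laptm5 1436905_x_at, which both read highest on long-day MPOA array 2. Over the whole array, the median for same-gene pairs was 0.04 where the dimmer probe set averaged 10 to 30 (9713 pairs) and 0.63 where it averaged over 100 (412 pairs). The arrays share nuclei and day lengths, so these values are descriptions. The median residual SD of the members on the log2 scale was 0.17, as it was for all probe sets.

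**Figure D4:**
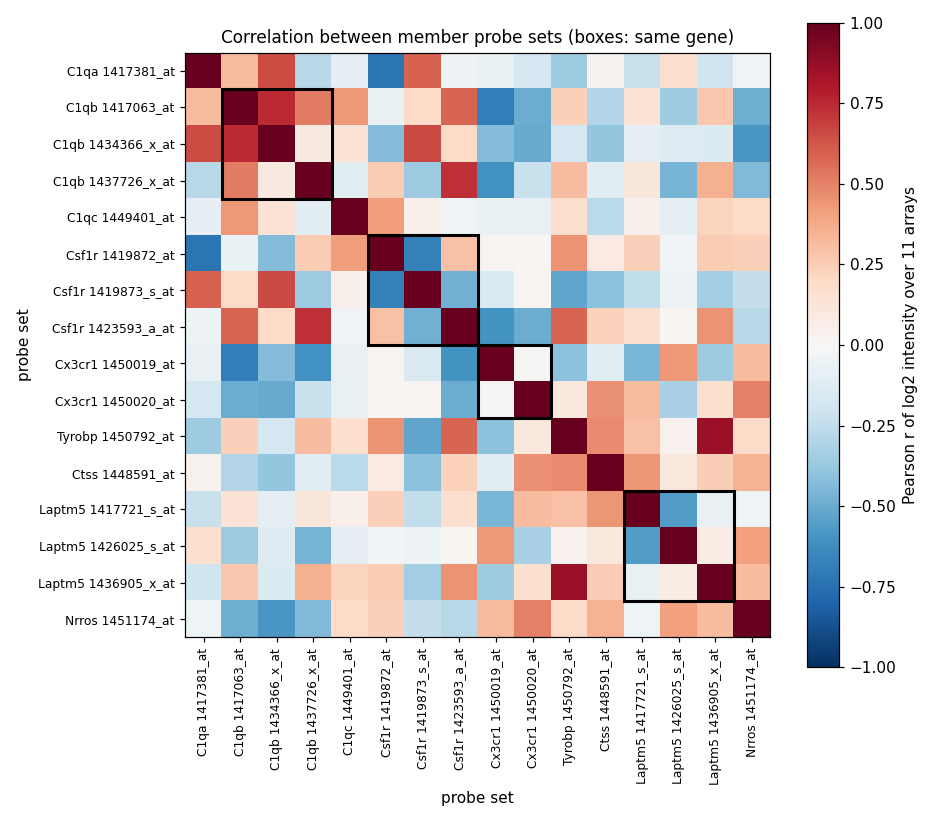
Pearson r of log2 intensity over the 11 arrays between all member probe sets, both axes listing the 16 probe sets and the colour giving r. Black boxes enclose probe sets of the same gene, where r runs from -0.68 to 0.75.

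The 7 member probe sets that averaged above the array median were joined into 1 mean profile, and the probe sets of other genes most like it over the 11 arrays were sought among 10366 above the array median. They belonged to Tnfrsf19 (r = 0.94), Tmem68 (0.89), Nek8 (0.88), Aen (0.87) and Myod1 (0.86). With the group means taken out, r was 0.82, 0.88, 0.68, 0.78 and 0.68 in the same order. Nrros is 1 of the 7 probe sets, so its BNST difference between day lengths is part of the profile. None of these 5 is in a cell type or pathway list used here. These are the highest of a large number of correlations and are given as a description.

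The partners of the members were examined next, taking the brightest probe set of each gene. The list of the complement cascade also holds lectin and alternative pathway genes such as Mbl2 and Cfb. Of its 23 genes 15 were measured, and 4 averaged above the array median. C3 and C4b were listed but had no probe set named for them alone, so they were not measured. In the BNST 7 were higher and 8 lower in short days (median -0.06), in the MPOA 5 and 10 (median -0.04), and none passed. Of 19 complement receptors and regulators, 8 were higher and 11 lower in the BNST and 7 and 12 in the MPOA, and none passed. C1qbp, a mitochondrial protein first found as a C1q binder, read 125 and 164 on the short-day BNST arrays, against 200, 201 and 216 on the long-day ones. Its groups did not overlap, and the difference of -0.52 ± 0.15 missed the threshold (adjusted p = 0.154, limma). Its second probe set went the other way, at 13 and 13, against 10, 10 and 11, also without overlap.

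Of 14 genes around Tyrobp, 6 averaged above the array median. In the BNST 11 of the 14 were higher and 3 lower in short days (median 0.10). In the MPOA 10 were higher and 4 lower (median 0.07), and none passed in either nucleus. The medians over all singly named genes were -0.03 in the BNST and 0.00 in the MPOA. Of all probe sets, 47.2% were higher in short days in the BNST and 49.9% in the MPOA. Both list medians are small, as a step of an intensity unit at the array median is by itself 0.07 on the log2 scale. Trem2, the lipid-sensing receptor that signals through Tyrobp, read 60 and 57 on the short-day BNST arrays, against 52, 70 and 53 on the long-day ones. In the MPOA it read 60, 50 and 71 in short days, against 53, 58 and 64. Its groups overlapped in both nuclei.

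The list around Csf1r holds its ligands and signalling genes, and also Csf2, Csf2ra, Csf2rb and Csf3r of related growth factor systems. Of its 12 genes, 6 were higher and 6 lower in each nucleus, and none passed. Csf1, one of the ligands, read 66 and 60 on the short-day BNST arrays, against 92, 86 and 64 on the long-day ones (-0.34 ± 0.16, adjusted p = 0.384, limma). In the MPOA it read 68, 75 and 70 in short days, against 70, 59 and 57 (0.20 ± 0.14). Its 4 probe sets did not run together, with BNST differences of -0.34, -0.32, 0.15 and 0.04 and MPOA differences of 0.20, 0.29, 0.04 and -0.18 in the same order. Il34, the other ligand, stayed between 12 and 18 on all arrays. Of 6 genes around Cx3cr1, 2 were higher and 4 lower in the BNST and 4 and 2 in the MPOA, and none passed. Cx3cl1, fractalkine itself, read 40 and 37 on the short-day BNST arrays, against 35, 37 and 43. Adam17, a protease that sheds surface proteins including fractalkine, read 44 and 43 in short-day BNST, against 29, 24 and 31 (0.64 ± 0.21, adjusted p = 0.203, limma), and a further probe set of it read 18 and 15, against 24, 18 and 22.

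The list around Nrros holds TGF-beta genes and also Tlr4, Cybb, Cyba and Hsp90b1. Of its 19 genes 17 were measured. In the BNST 9 were higher and 8 lower (median 0.01), in the MPOA 8 and 9 (median -0.01), and none passed. Tgfb1, the ligand that Nrros holds, was dim and read 15 and 19 on the short-day BNST arrays, against 15, 16 and 13. The 3 genes picked for the smallest p in the BNST all read higher in short days without overlap. In the BNST 23.7% of all probe sets had groups without overlap, so this describes the pick and not the list. Smad4, the common partner of receptor-activated Smads, read 46 and 50, against 27, 29 and 40 (0.61 ± 0.17, adjusted p = 0.137, limma). Tgfbr2, the type 2 receptor, read 36 and 39, against 25, 21 and 31 (0.56 ± 0.16, adjusted p = 0.138, limma). Its other probe sets also read higher, at 31 and 29, against 24, 25 and 27, and at 9 and 9, against 7, 7 and 7. Smad3, a receptor-activated Smad, read 49 and 47, against 31, 32 and 36 (0.54 ± 0.18, adjusted p = 0.206, limma). The second Smad3 probe set read 19 and 21, against 26, 25 and 22, and so ran the other way, as did a Smad4 probe set at 23 and 18, against 26, 17 and 24, with overlap.

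Of 19 genes of the lysosome and antigen presentation around Ctss, 9 were higher and 10 lower in the BNST and 11 and 8 in the MPOA, and none passed. Cst3, the secreted inhibitor of cathepsins, read 127 and 117 on the short-day BNST arrays, against 136, 115 and 131. Of the 27 further microglial genes, 14 were higher and 13 lower in the BNST (median 0.00) and 12 and 15 in the MPOA (median -0.02), with none passing. Among them Aif1, the calcium-binding protein Iba1, stayed between 11 and 16, Itgam, the integrin CD11b, between 15 and 19, and P2ry12, a receptor for ADP, between 12 and 18. Unc93b1, a chaperone of endosomal Toll-like receptors, had the smallest p in the BNST, at 30 and 26 in short days, against 40, 35 and 39 (-0.44 ± 0.14, adjusted p = 0.192, limma).

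Genes of activated microglia were higher in 13 and lower in 11 of 24 cases in the BNST and in 11 and 13 in the MPOA, and none passed between day lengths. Between the nuclei 1 of them passed: Clec7a, a receptor for fungal glucans, read 15 and 14 in short-day and 11, 13 and 13 in long-day BNST, against 17, 16 and 20 in short-day and 19, 16 and 20 in long-day MPOA (-0.42 ± 0.10, adjusted p = 0.0476, limma). All of these values lie near or under the array median, and each fit that left out 1 array lost this call, with an adjusted p of up to 0.196.

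Of 9 myeloid transcription factors, 2 passed between the nuclei, and both are also expressed in neurons. Mef2c averaged higher in the BNST (548 and 431 in short-day and 499, 501 and 340 in long-day samples) than in the MPOA (165, 251 and 179 in short-day and 340, 238 and 236 in long-day samples), a difference of 1.02 ± 0.14 (adjusted p = 6.9e-04, limma). Mef2a differed by 0.80 ± 0.11 (adjusted p = 4.0e-04, limma), and 3 of its 4 further probe sets and 2 of the 4 further ones of Mef2c passed too. Those 2 of Mef2c lost their call without short-day BNST array 4, with adjusted p-values of 0.0761 and 0.0690 (limma). Spi1, the lineage-determining factor of macrophages known as PU.1, read 25 and 23 in short-day and 30, 29 and 25 in long-day BNST samples, against 21, 26 and 24 in short-day and 23, 28 and 24 in long-day MPOA samples. Gnai2, a G-protein subunit listed with Cx3cr1 but expressed in many cell types, was lower in the BNST (-0.56 ± 0.13, adjusted p = 0.0322, limma), while its second probe set overlapped, at 58 to 78 in the BNST and 56 to 78 in the MPOA. The Gnai2 call was lost when any 1 of 7 arrays was left out, namely short-day BNST arrays 4 and 5, long-day BNST arrays 1 and 2, short-day MPOA arrays 4 and 5 and long-day MPOA array 2, with an adjusted p of up to 0.205.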

How the data were processed

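The authors deposited 1 linear intensity for each probe set and array, computed with RMA version 3.4 per the submitters' processing notes. The numbers are whole and every array has the same median, as after scaling between arrays and rounding. No source used here gives chip handling or scan batches. After 64 of 22690 probe sets, the controls, were set aside, log2 was taken with no pseudocount, and limma 3.58.1 fitted 4 group means to the 11 arrays in R 4.3.3 (7 residual and 12.9 prior degrees of freedom). Tests were two-sided, with Benjamini-Hochberg adjustment over all probe sets and a threshold of 0.05. The platform annotation, which can be old, names 20380 tested probe sets with 1 symbol, 691 with several and 1555 with none. Groups and sample numbers come from the sample descriptions. The labels do not tie samples to animals, so p-values measure the spread between these samples.

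Members and gene lists were chosen with earlier results of these data known. The text names all members, and of each list a selection from genes that passed or had the 3 smallest p, plus 12 fixed partners where measured. Opposite probe sets named beside them were picked after their values were seen. Level counts use the brightest probe set per gene. No detection call was used. Precision is limited by the number of arrays. The fit was also run on simulated arrays with independent noise, without an outlying array or shared animals. Its outcome is not given here and does not bear on those features of the data. Of 5 sample numbers shared by both nuclei, the deviations from group means correlated by -0.01 to 0.12, so numbers were not taken as pairs. Alternatives were quantile normalization, median centring, array weights, a robust prior with a trend, 1 probe set per gene, leaving out dim probe sets, noise against rounding, 1 nucleus alone, each array left out, and a block on sample number. The block was fitted for BNST minus MPOA only. The mean of the nuclei and the difference of the effects were not checked with it, and their errors take all arrays as independent.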

Additional observations from a re-analysis of the deposited data

Results flagged for a closer look

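Among the probe sets checked, 2 moved in opposite directions with day length in the nuclei, on every array of both. Ccl3, a chemokine of activated myeloid cells, read 23 and 28 in short-day BNST, against 20, 19 and 18 in long days, and 16, 19 and 20 in short-day MPOA, against 25, 24 and 23 in long days. The BNST effect minus the MPOA effect was 0.81 ± 0.20 (adjusted p = 0.436, limma), and its intensities lie near the array median of 19. Grb2, an adaptor of receptor tyrosine kinases, read 32 and 32 in short-day BNST, against 35, 45 and 35, and 33, 40 and 38 in short-day MPOA, against 30, 32 and 30. Its difference between the nuclei was -0.52 ± 0.20 (adjusted p = 0.527, limma). The second Grb2 probe set did not show this, at 36 and 32 in short-day BNST, against 30, 33 and 30, and 30, 30 and 33 in short-day MPOA, against 32, 29 and 25. Of all probe sets, 0.636% showed such opposite groups, as did 2 of the 248 probe sets checked here. Those 248 include genes picked for a small p in the difference of the effects, so the shares are not a like comparison. No member did.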

How the results depend on the processing

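The number of probe sets past the threshold between short and long days in the BNST was 10, and with the BNST arrays alone 0. Leaving out 1 array gave 0 (without short-day BNST array 5) to 38 (without short-day MPOA array 6). For the members it was 1, and 0 with noise against rounding, 0 with the BNST arrays alone and 0 to 1 without 1 array. In the MPOA it was 0, with array weights 1, and 0 to 1 without 1 array. For the mean of the nuclei it was 3, with dim probe sets left out 1, and 1 to 5 without 1 array. For the difference of the effects it was 0, and 0 to 5 without 1 array, the 5 without long-day BNST array 1. Between the nuclei it was 233, and 70 (without short-day BNST array 5) to 224 (without short-day MPOA array 6). With the replicate block it was 225, and 0 members passed. Of 5 BNST arrays, 2 correlated best with the MPOA array of their own number, and this block changed no member's call. The Clec7a call between the nuclei was lost with it (adjusted p = 0.114, limma). The member median in the MPOA, -0.03, was 0.0831 without dim probe sets and 0.0750 with 1 probe set per gene, and that between the nuclei, -0.06, was 0.0405 without dim probe sets. These alternatives use fewer members.

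Of 52 member differences, 15 changed sign in some alternative, and none of the 15 had passed. Cx3cr1 1450019_at in the MPOA became -0.00339 with array weights and ran from -0.0658 to 0.0951 without 1 array. Without 1 array, BNST differences between day lengths ran from -0.296 to 0.0409 for C1qa, -0.109 to 0.427 for C1qc, -0.437 to 0.179 for Csf1r 1419873_s_at, -0.0905 to 0.379 for Ctss and -0.0997 to 0.0850 for Laptm5 1417721_s_at. MPOA differences ran from -0.0741 to 0.0385 for C1qb 1434366_x_at, -0.292 to 0.0661 for Tyrobp and -0.194 to 0.210 for Laptm5 1436905_x_at. Differences between the nuclei ran from -0.197 to 0.0323 for C1qb 1417063_at, -0.0435 to 0.199 for C1qb 1434366_x_at, -0.236 to 0.0324 for C1qc, -0.200 to 0.00152 for Laptm5 1436905_x_at, -0.0438 to 0.0366 for Cx3cr1 1450019_at and -0.0362 to 0.0514 for Cx3cr1 1450020_at. The cause was not tested. Most members lie near the array median, where 1 intensity unit is 0.07 on the log2 scale, and this limits them.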
